A study of Mus musculus with 16 samples.

Results

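Of the 577 miRs that the array carries, 3 were examined here, mmu-miR-338-3p, mmu-miR-149 and mmu-miR-582-5p, which were chosen because their signal was highest in granulocyte-monocyte progenitors (GMP). All 6 of their probes passed the detection filter, with 10 spots per probe on each array. Because the signal in GMP made the choice, every value that sets GMP against another population is given as a description without a test, and tests are given only among the other 5 populations.

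The 16 one-colour arrays held RNA of hematopoietic stem and progenitor cells (HSPC) sorted from the bone marrow of female C57Bl/6 mice aged 6 to 8 weeks, with no genetic change or treatment in any group. The myeloid side had 3 arrays each of GMP, of megakaryocyte-erythroid progenitors (MEP) and of common myeloid progenitors (CMP). The stem side had 3 arrays of multipotent progenitors (MPP), 3 of ST-HSC and 1 of LT-HSC, the short-term and long-term HSC. Marrow from 10 to 20 mice was pooled for every sample, so an array stands for a pool and not for an animal. LT-HSC, ST-HSC and MPP, together the HSC subsets, came from 1 kind of sort of lineage-depleted, c-kit+ cells, and CMP, GMP and MEP from another, so sort and lineage side cannot be told apart. In such bulk samples, fewer cells of a type and less RNA per cell also cannot be told apart.

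MiRs are short RNAs cut from the arms of a hairpin, and a mature miR finds its target mRNAs mainly through the seed, bases 2 to 8 from its 5′ end. CMP are placed in the textbook hierarchy between the stem side and both GMP, which give rise to neutrophils and monocytes, and MEP, which give rise to platelets and red cells. None of the 3 is a classical marker of the granulocyte-monocyte lineage in the way that miR-223 is. MiR-338-3p is best known from neural tissue and oligodendrocyte maturation, miR-149 and miR-582-5p mostly from studies of tumour cells, and all 3 hairpins are known to lie in introns of protein-coding genes.

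The mature sequences are shown because they define what each probe detects and which seed each miR carries. They are given 5′ to 3′ from RefSeq (GRCm38.p6), with the seed in capitals.
mmu-miR-338-3p: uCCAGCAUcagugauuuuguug
mmu-miR-149 (now named mmu-miR-149-5p): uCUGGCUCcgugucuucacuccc
mmu-miR-582-5p: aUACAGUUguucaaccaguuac

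All 3 names were found in the RefSeq table, miR-149 under its newer name. The 3 seeds differ from one another, and no other of the 1738 mature entries of that table shares any of them, so the array holds no seed family for these miRs as far as the table goes. Mature miR-338-3p lies at chr11:120014781-120014802 on the minus strand, within the span of Aatk, which encodes a kinase of neural cells. Mature miR-149 lies at chr1:92850381-92850403 on the plus strand, within Gpc1, which encodes the cell surface proteoglycan glypican. Mature miR-582-5p lies at chr13:109324753-109324774 on the plus strand, within Pde4d, which encodes a cyclic AMP phosphodiesterase. The sequences differ in base composition, with a GC content of 40.9% for miR-338-3p, 60.9% for miR-149 and 36.4% for miR-582-5p.

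Each miR had a pair of probes that differ by 1 base in the stretch they match. On the array's own build (mm9), the probes of miR-338-3p match 21 and 20 bases from chr11:119876095-119876115, those of miR-149 match 18 and 17 bases from chr1:94746963-94746980, and those of miR-582-5p match 22 and 21 bases from chr13:110114948-110114969. For all 3, the longer probe was the brighter one and stood for its miR. Values below are log2 of the quantile-normalized signal of that probe, raised to a floor of 1.62 set from the negative controls, where not stated otherwise. The scanner software calls single spots well above background, and a probe is given that call here for an array with a share of at least 0.5 of its kept spots; the filter asked for 3 such arrays.

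Signal and detection differed with the slide, which touches the results below. Myeloid replicates 1 and 2 were on slide 1 and myeloid replicate 3 on slide 2, where LT-HSC 1 and ST-HSC 1 were placed as well. ST-HSC 2, ST-HSC 3 and all MPP arrays were on slide 3. Before normalization the negative controls reached, at their 95th percentile, 9.94 to 44.3 units across slide 1, but 1.53 to 2.21 across slide 2 and 1.99 to 3.35 across slide 3. ST-HSC 1 stood apart from the other arrays of its population, with r = 0.902 and 0.911 to ST-HSC 2 and 3 across tested miRs, against 0.992 between those, so results that rest on it are also given without it. Marker miRs were read against the labels. MiR-223, of the granulocyte-monocyte lineage, was at 14.04 on every GMP array, the top value of the normalized scale and thus without spread. It averaged 12.66 in CMP, 11.35 in the HSC subsets and 9.61 in MEP. All 3 erythroid miRs were called higher in MEP than in the HSC subsets (against 24.5% of all tested miRs), and all 5 stem side miRs were called lower in both CMP (against 17.3%) and MEP (against 38%). Erythroid miRs were also seen on LT-HSC 1, where miR-451 was at 11.15, miR-486 at 6.34 and miR-144 at 5.29, all well above background. Their summed signal was 2387 units there, 41.7 to 307.8 in ST-HSC and MPP and 4044 to 6187 in MEP. The part of this signal in the results was not tested, and results that rest on LT-HSC 1 are given without it too.

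In GMP, both probes of all 3 miRs were well above background on every array. All 10 spots of each probe were called on each GMP array, except for the shorter probe of miR-582-5p on GMP 1, with 9. Outside GMP, detection differed between the miRs. MiR-338-3p was seen by its longer probe on the 3 CMP arrays and on ST-HSC 1, with 9 or 10 spots called on each. MiR-149 was seen by its longer probe on ST-HSC 1 with 10 spots and on MPP 1, MPP 3 and CMP 3 with 5 spots each, which is the least the rule allows. ST-HSC 3 also had 5 spots called but fell short over its kept spots, so these single calls are not firm. Its shorter probe was seen on no array outside GMP. MiR-582-5p was seen by its longer probe on the 3 MPP arrays, with 7, 10 and 10 spots, and on no CMP array. None of the 6 probes was well above background on LT-HSC 1 or on an MEP array.

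**Figure D1:**
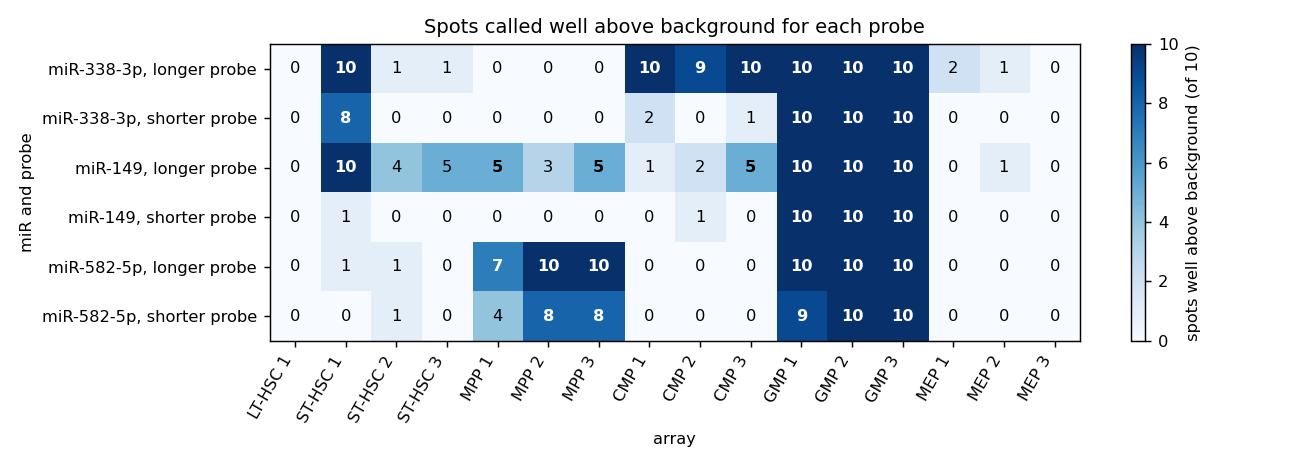
Number of the 10 spots called well above background (colour and digits) for the longer and shorter probe of each miR on each of the 16 arrays. Bold digits mark arrays on which the probe counted as well above background; the GMP columns are full, and outside GMP the called arrays are those of CMP and ST-HSC 1 for miR-338-3p, ST-HSC 1, MPP 1, MPP 3 and CMP 3 for miR-149, and those of MPP for miR-582-5p.

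MiR-338-3p stepped up from the stem side through CMP to GMP. It was at 7.31, 7.37 and 7.71 on the GMP arrays and at 5.07, 5.20 and 5.86 on the CMP arrays. The value was 5.93 on ST-HSC 1, against 2.77 and 2.68 on ST-HSC 2 and 3. LT-HSC 1 was at 2.40, the MPP arrays at 2.01, 1.89 and 1.96 and the MEP arrays at 3.06, 3.55 and 2.12. No GMP array overlapped any other, and the CMP arrays lay above every MEP array and above every array of the HSC subsets except ST-HSC 1, which exceeded all 3 of them.

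The population means of miR-338-3p ran in the order GMP (7.47 ± 0.22, SD, n = 3), CMP (5.37 ± 0.43, n = 3), ST-HSC (3.80 ± 1.85, n = 3), MEP (2.91 ± 0.73, n = 3), LT-HSC (2.40, n = 1) and MPP (1.96 ± 0.06, n = 3). CMP and ST-HSC overlapped, as did ST-HSC and MEP, and the last 3 populations held no array well above background, so their order carries no weight. GMP exceeded CMP, with all 3 arrays well above background, by 2.09 on the log2 scale, and ST-HSC, with 1 of 3, by 3.67. Against populations without an array well above background the fold is a bound, computed from the dimmest probe still called well above background on each array of the lower population. GMP was at least 22.7-fold higher than MPP, at least 14.0-fold higher than MEP and at least 8.14-fold higher than LT-HSC. Over ST-HSC 2 and 3 alone it was at least 20.6-fold higher.

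Before normalization miR-338-3p was highest in GMP as well, with 252.8, 305.2 and 140.2 units there, 43.5, 54.0 and 25.3 units in CMP and 34.3 units on ST-HSC 1. The CMP values stood above what the negative controls of the same arrays reached at their 95th percentile, which was 30.6, 44.3 and 2.21 units. The margin was thus narrow on CMP 1 and CMP 2 and wide on CMP 3. The shorter probe gave the same order of populations at the top with lower signal: 49.5, 64.8 and 32.3 units in GMP, 10.7, 14.1 and 6.77 in CMP and 9.83 on ST-HSC 1, and it was well above background on no CMP array.

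**Figure D2:**
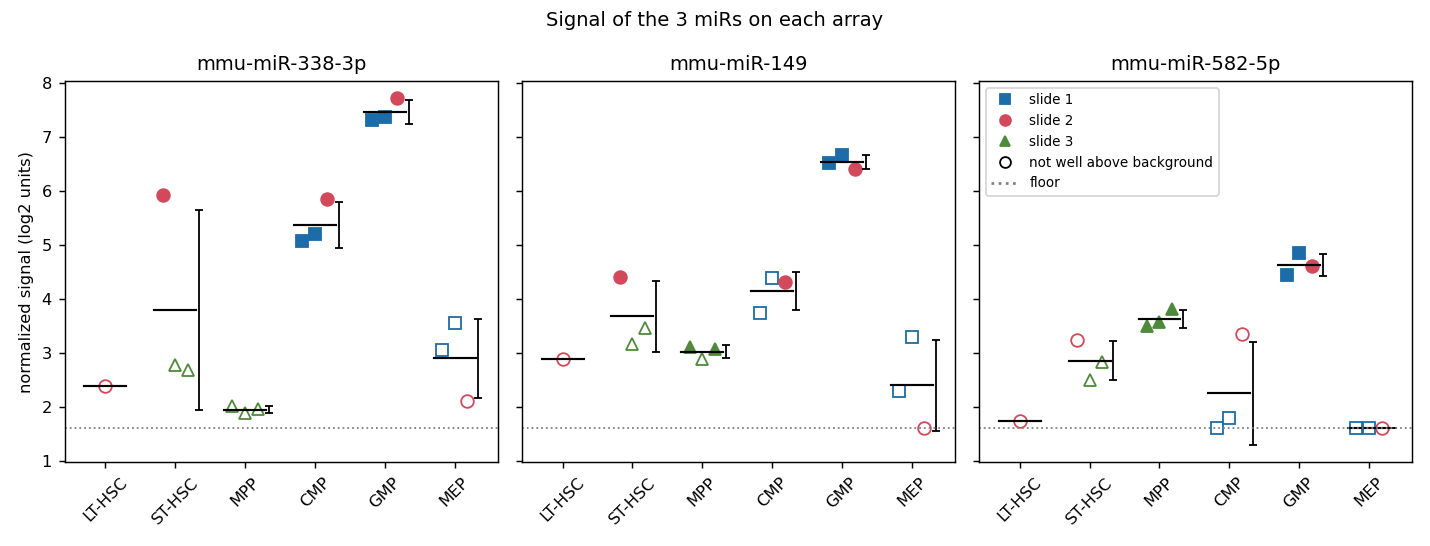
Normalized log2 signal of the longer probe of each miR on each array, by population. Symbols give the slide, filled symbols the arrays well above background, horizontal bars the population means and vertical bars the SD (n = 3; LT-HSC has 1 array); the GMP points lie above all others in each panel, and CMP lies midway for miR-338-3p, low for miR-149 and under MPP for miR-582-5p.

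MiR-149 was highest in GMP, with a smaller step in CMP. The GMP arrays were at 6.53, 6.66 and 6.41 and the CMP arrays at 3.75, 4.38 and 4.31. ST-HSC 1 was at 4.41 and ST-HSC 2 and 3 at 3.16 and 3.46, with the MPP arrays at 3.12, 2.88 and 3.08, LT-HSC 1 at 2.89 and the MEP arrays at 2.29, 3.29 and the floor. Outside GMP the 13 arrays thus spanned 1.62 to 4.41, and the highest of them was again ST-HSC 1, 2.01 below the lowest GMP array.

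The means of miR-149 ran from GMP (6.53 ± 0.13, SD, n = 3) to CMP (4.15 ± 0.35, n = 3), ST-HSC (3.68 ± 0.65, n = 3), MPP (3.03 ± 0.13, n = 3), LT-HSC (2.89, n = 1) and MEP (2.40 ± 0.84, n = 3). CMP and ST-HSC overlapped, as did MPP with LT-HSC and LT-HSC with MEP. GMP exceeded CMP by 2.39, ST-HSC by 2.86 and MPP by 3.51 on the log2 scale, where 1, 1 and 2 of the 3 lower arrays were well above background. It exceeded ST-HSC 2 and 3 alone by 3.22 on the log2 scale. MiR-149 was well above background on neither, yet lay above the dimmest probe called on each, so no bound is given. GMP was at least 7.35-fold higher than MEP and at least 4.27-fold higher than LT-HSC. Before normalization the GMP arrays gave 128.6, 161.9 and 54.8 units. CMP 1 and CMP 2 gave 19.0 and 30.001 units, less than their own negative controls reached at the 95th percentile, and CMP 3 gave 8.37 units, above it. On the shorter probe the lowest GMP array (GMP 3, 19.71 units) and the highest other array (CMP 2, 19.69 units) were almost level before normalization, and on the normalized scale they were at 4.87 and 3.75.

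For miR-582-5p the population with the next highest mean after GMP was MPP, not CMP. It was at 4.44, 4.84 and 4.62 on the GMP arrays and at 3.51, 3.57 and 3.82 on the MPP arrays. The ST-HSC arrays were at 3.24, 2.51 and 2.84 and LT-HSC 1 at 1.74. CMP 1 lay at the floor, CMP 2 at 1.80 and CMP 3 at 3.36, and all 3 MEP arrays lay at the floor, with negative background-subtracted signal of -2.34, -2.25 and -0.53 units. GMP and MPP did not overlap, but the gap between the nearest arrays was only 0.62. The dimmest probe called well above background was at 4.05, 4.65 and 4.21 on CMP 1, 2 and 3, above every MPP value. A CMP level like that of MPP might thus not have been called, so the order of MPP and CMP is not firm.

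The means of miR-582-5p were 4.63 ± 0.20 (SD, n = 3) in GMP, 3.63 ± 0.16 (n = 3) in MPP, 2.86 ± 0.37 (n = 3) in ST-HSC, 2.26 ± 0.96 (n = 3) in CMP and 1.74 (n = 1) in LT-HSC. ST-HSC and CMP overlapped, and so did CMP and LT-HSC. GMP exceeded MPP by 1.0002 on the log2 scale. The bounds against the populations without detection were low, at least 2.42-fold for ST-HSC, 1.97-fold for MEP, 1.26-fold for CMP and 1.14-fold for LT-HSC. In units, GMP gave 26.7, 36.4 and 16.2 and MPP 11.3, 13.4 and 14.3. The shorter probe kept this order, with 18.9, 26.5 and 12.2 units in GMP and 7.82, 10.01 and 9.86 in MPP.

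GMP lay above all 13 other arrays for all 3 miRs, which their choice used, and did so for 13 of the 237 tested miRs, 5.49%. Under 9 settings of normalization, background and floor this held in 9 for miR-338-3p and miR-149 and in 8 for miR-582-5p, whose difference from every population was 0 with the highest floor. Whether CMP lay between the stem side and GMP was then read against the mean of the 3 population means of the HSC subsets. For miR-338-3p the stem side was at 2.72, and CMP covered 56.0% of the step to GMP. For miR-149 the stem side was at 3.20, and CMP covered 28.5% of the step. For miR-582-5p the stem side was at 2.75 and CMP at 2.26, so by these means CMP did not lie between. On slide 2 alone it did, with LT-HSC 1 at 1.74, ST-HSC 1 at 3.24, CMP 3 at 3.36 and GMP 3 at 4.62. Of these arrays, only GMP 3 was well above background. Among the 113 tested miRs with GMP above the stem side, CMP lay between for 55, 48.7%. Where GMP was above by over 1 log2 unit, as for all 3 miRs, it lay between for 35 of 44. Among the 13 miRs with no overlap it lay between for 9. Under the same 9 settings, CMP lay between in 9 for miR-338-3p, in 8 for miR-149 and in 0 for miR-582-5p. The share of the step varied with the setting, from 4.07% to 56.0% for miR-338-3p and from 0% to 37.0% for miR-149, both lowest with the highest floor.

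**Figure D3:**
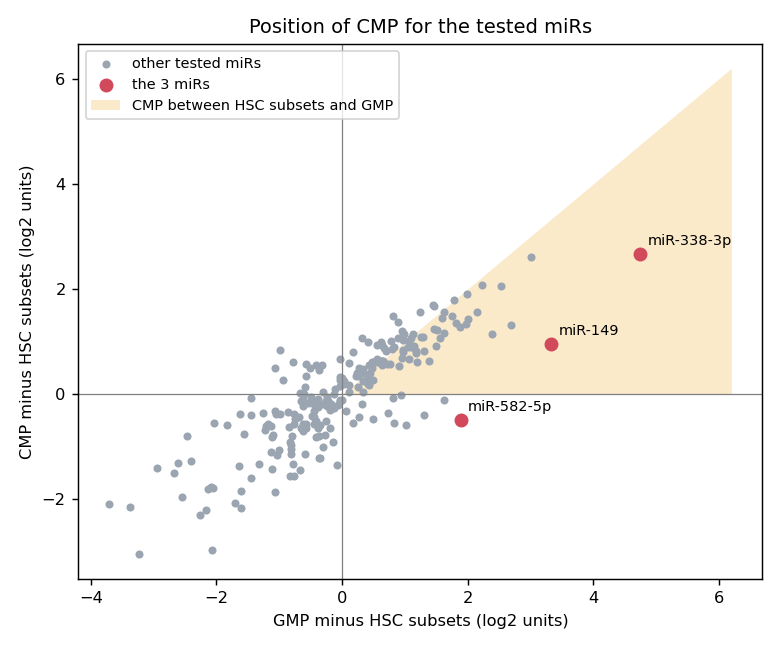
Difference of CMP from the HSC subsets against that of GMP from the HSC subsets (both log2 units) for the 237 tested miRs, with the 3 miRs in red; both axes share the HSC subsets. The shaded wedge holds miRs whose CMP mean lies between the other 2; miR-338-3p and miR-149 lie inside it at the far right, and miR-582-5p lies below it.

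The CMP against HSC subsets comparison asked whether the rise was already present in the common progenitor, with no GMP array on either side. The GMP arrays still entered the spread pooled over the populations, and so each SE and adjusted p here and below. MiR-338-3p was higher in CMP by 2.66 (SE 0.59; limma, adjusted p = 0.00433). MiR-149 was higher by 0.95 (SE 0.34; limma, adjusted p = 0.0401), and miR-582-5p had a difference of -0.49 (SE 0.32; 95% interval -1.19 to 0.21; limma, adjusted p = 0.239). Thus 2 of the 3 were called, against 43.9% of all tested miRs in either direction and 26.6% called higher in CMP. The median difference of all tested miRs was -0.0025.

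The call for miR-338-3p held under the removal of each of the 16 arrays in turn, with differences of 2.42 to 3.01 and adjusted p (limma) of 6.1e-06 to 0.0205. Without ST-HSC 1 the difference was 3.01, and without LT-HSC 1 it was 2.50. With slide as a block it was 0.86 and was not called (limma, adjusted p = 0.167), and the adjusted p ran from 6.1e-06 to 0.980 over all 33 alternatives tested. Slide 2 alone joins the 2 sides, with 1 CMP array and 2 HSC arrays. There CMP 3 was at least 2.68-fold higher than LT-HSC 1, which was not well above background, and differed from ST-HSC 1 by -0.0733 on the log2 scale, both comparisons chosen after the data were seen.

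The call for miR-149 was less firm. It passed for 7 of 16 arrays left out in turn (limma, adjusted p of 0.0105 to 0.137) and in 12 of all 33 alternatives tested (limma, adjusted p of 0.0101 to 1), with 1.07 without ST-HSC 1, and was 0.10 with slide as a block (limma, adjusted p = 0.919). It was lost without LT-HSC 1 (0.80, limma, adjusted p = 0.0824), ST-HSC 2, ST-HSC 3, any 1 MPP array, CMP 2, CMP 3 or GMP 1. On slide 2, CMP 3 differed from ST-HSC 1 by -0.0931, and against LT-HSC 1, not well above background at 2.89, no fold can be given. MiR-582-5p, which was well above background on no CMP array, was called lower in CMP without LT-HSC 1 (-0.99, limma, adjusted p = 0.0261) or without CMP 3 (-1.04, limma, adjusted p = 0.00283), against 0.239 with all arrays and 0.00283 to 1 over all 33 alternatives, of which 3 made the call.

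Since ST-HSC 1 was as high as CMP for both miRs, marker miRs on it were compared with those on ST-HSC 2 and 3. MiR-223 was not raised on it (11.79, against 12.07 and 11.79). Of the 5 stem side miRs, miR-10a was at 8.37 there against 9.66 and 9.75, let-7e at 5.63 against 6.72 and 7.31, miR-125a-5p at 4.89 against 5.03 and 5.33, miR-125b-5p at 8.83 against 9.06 and 9.16, and miR-99a at 8.90 against 8.65 and 8.80. Of the 3 erythroid miRs, miR-451 was at 8.10 there against 6.26 and 7.95. MiR-144 was at 4.48, well above background, against 1.62 and 1.67, both not. MiR-486 was at 3.38 against 2.45 and 2.94, well above background on none of the 3. The part of these differences in the high miR-338-3p and miR-149 of this array was not tested.

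The CMP against MEP comparison set the common progenitor against its erythroid-megakaryocyte branch, with arrays of both on slides 1 and 2. MiR-338-3p was higher in CMP by 2.47 (SE 0.67; limma, adjusted p = 0.00538), and at least 3.29-fold higher, since no MEP array was well above background. MiR-149 was higher in CMP by 1.75 (SE 0.39; limma, adjusted p = 0.00153). Only 1 of 3 CMP arrays and no MEP array was well above background, so no fold is given. MiR-582-5p differed by 0.64 (95% interval -0.15 to 1.43; limma, adjusted p = 0.139), with no array of either population well above background. The 2 calls stand against 64.6% of all tested miRs called in either direction and 43.9% called higher in CMP, and the median difference of all tested miRs was 0.55. The arrays of CMP and MEP did not overlap for miR-338-3p and miR-149, against 68.8% of all tested miRs in either direction.

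These differences had the same sign on both slides. On slide 1, CMP exceeded MEP by 1.83 for miR-338-3p (limma, adjusted p = 0.00113) and by 1.27 for miR-149 (limma, adjusted p = 0.0400) with 2 arrays of each. MiR-149 was well above background on none of these slide 1 arrays. Before normalization its signal on each was under what that array's negative controls reached at their 95th percentile. On slide 2, with 1 array of each and no test, CMP 3 was at least 5.64-fold higher than MEP 3 for miR-338-3p and at least 1.93-fold higher for miR-149. GMP exceeded CMP by 2.21 on slide 1 and 1.85 on slide 2 for miR-338-3p, on the log2 scale. Over all 33 alternatives tested, the calls of CMP above MEP held in 32 for each of miR-338-3p (limma, adjusted p of 2.4e-05 to 0.766) and miR-149 (limma, adjusted p of 0.000135 to 1), and were lost with the highest floor. Slide as a block, or an array of another population left out, cannot move these differences but only their SE and adjusted p. MiR-582-5p was called higher in CMP without CMP 1 (0.96, limma, adjusted p = 0.0427, against 0.000976 to 1 over all 33 alternatives), with no array of either population well above background.

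The MEP against HSC subsets comparison showed a call for miR-582-5p alone among the 3. It was lower in MEP by a difference of -1.13 (SE 0.32; limma, adjusted p = 0.00880). Since no MEP array and only the 3 MPP arrays of the stem side were well above background, no fold is given. The MEP arrays, all at the same floor value, entered the spread pooled over the populations, which lowers this SE. MiR-149 had a difference of -0.80 (SE 0.34; limma, adjusted p = 0.0585), and miR-338-3p one of 0.19 (95% interval -1.08 to 1.47; limma, adjusted p = 0.799). Of all tested miRs, 62.4% were called in either direction, 24.5% higher and 38% lower in MEP, with a median difference of -0.38. Without ST-HSC 1 the difference of miR-338-3p was 0.55 and that of miR-149 -0.68. Without LT-HSC 1 it was 0.03 for miR-338-3p and -1.63 for miR-582-5p, and miR-149 was called (-0.95, limma, adjusted p = 0.0208), as it was without ST-HSC 2 (-0.88) and without MEP 2 (-1.24). With slide as a block, miR-338-3p turned to -1.61 (limma, adjusted p = 0.00565), against 0.00565 to 1 over all 33 alternatives, and miR-149 to -1.65 (limma, adjusted p = 0.00462), against 0.00405 to 1. On slide 2, miR-338-3p was at least 5.93-fold higher on ST-HSC 1 than on MEP 3, and neither MEP 3 nor LT-HSC 1 was well above background.

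**Figure D4:**
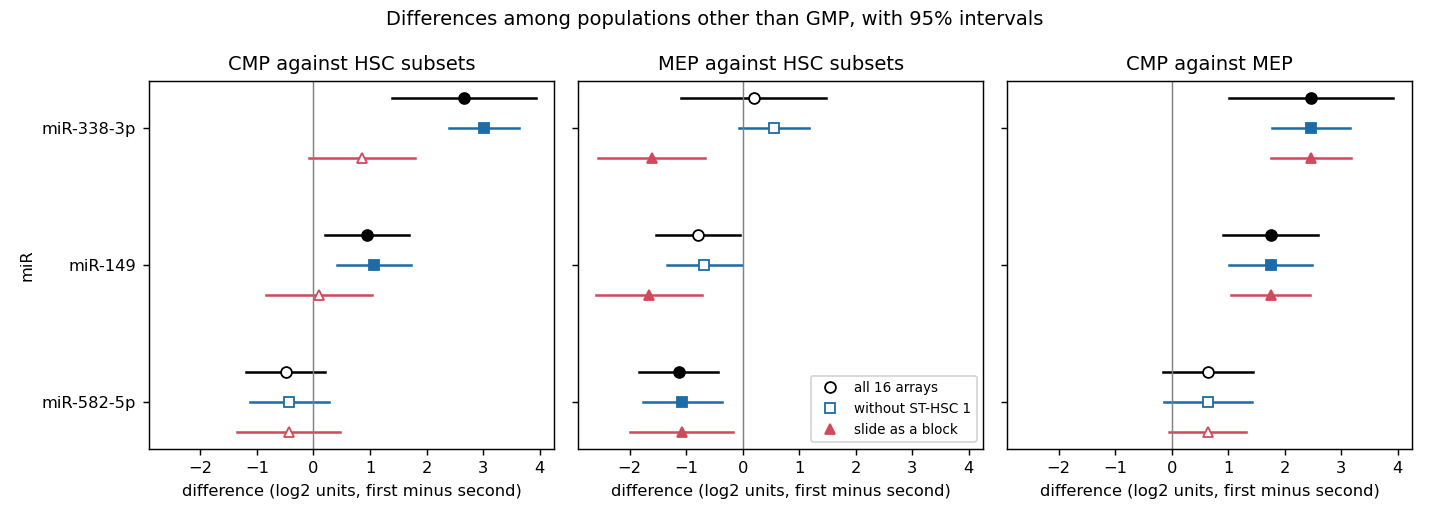
Differences in log2 units with 95% intervals for the 3 comparisons with no GMP array on either side. The fits were on all 16 arrays (black), without ST-HSC 1 (blue) and with slide as a block (red), and GMP arrays entered the pooled spread. Filled symbols passed an adjusted p of 0.05. The slide block moved the differences from the HSC subsets of miR-338-3p and miR-149 downward. Neither alternative can move CMP against MEP, whose arrays are spread alike over the slides and exclude ST-HSC 1, so only the intervals changed there.

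Of the other arms of the same hairpins, only miR-338-5p gave signal well above background, by a single probe. On that probe the GMP arrays overlapped those of the HSC subsets. Both sequences are shown for their seeds.
mmu-miR-338-5p: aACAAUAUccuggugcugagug
mmu-miR-582-3p: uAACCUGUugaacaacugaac

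MiR-338-5p had 4 probes of 5 spots, matching 12 to 15 bases, and the 14-base probe alone passed the filter, on 13 arrays and on none of CMP. It gave 31.0, 32.9 and 33.5 units in GMP and 47.3, 66.7 and 55.8 units in MPP. On the normalized scale it was lower in CMP than in the HSC subsets by a difference of -1.01 (SE 0.34; limma, adjusted p = 0.0327), with no CMP array well above background. On slide 2, CMP 3 was at 4.51 against 4.22 on ST-HSC 1 and 5.21 on LT-HSC 1. GMP 3 was the highest array there at 5.73, with MEP 3 at 4.77. On slide 1, GMP was at 4.65 and 4.64, CMP at 4.14 and 4.24 and MEP at 4.28 and 4.05. The ST-HSC and MPP arrays of slide 3, which held no GMP array, were at 5.34 to 5.79. The probes 1 base shorter and 1 base longer than this 14-base probe were well above background on no array. In GMP the longer of them gave 3.86 to 10.1 units. Whether the signal of the 14-base probe is that of miR-338-5p is thus not firm. The 4 probes of miR-582-3p, of 5 spots each, were well above background on no array, so the ratio of the arms of this hairpin could not be measured.

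Among the other tested miRs, those whose pattern over the 16 arrays was most like that of each miR were ranked by Pearson's r, as a description in which all points share slides and normalization. For miR-338-3p they were miR-484 (r = 0.928), miR-324-5p (0.919) and miR-24-2* (0.910), and over the 13 arrays other than GMP the values were 0.855, 0.934 and 0.867. For miR-149 they were miR-223 (0.895), miR-192 (0.884) and miR-139-5p (0.868), with 0.840, 0.767 and 0.719 outside GMP. On the GMP arrays miR-223 lay at the top of the normalized scale without spread. For miR-582-5p they were miR-362-5p (0.824), miR-194 (0.797) and miR-139-5p (0.750), with 0.818, 0.625 and 0.482 outside GMP. Between the 3 miRs themselves, miR-338-3p and miR-149 had r = 0.918 over 16 arrays and 0.803 outside GMP. MiR-582-5p had r = 0.506 with miR-338-3p and 0.728 with miR-149 over 16 arrays, and -0.11 and 0.27 outside GMP.

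The study's own list of miRs high in GMP, which was chosen on these samples and is no independent evidence, held 10 other miRs. Of these, 7 were called higher in CMP than in the HSC subsets, 1 lower and 2 neither, with a median difference of 1.11 (limma, adjusted p under 0.05 over all tested miRs), against 26.6% of all tested miRs called higher and 17.3% lower. CMP lay between the stem side and GMP for 6 of the 10. The largest difference of CMP from the HSC subsets was that of miR-106b* (2.05), then miR-27b (1.80), and the smallest were those of miR-148a (-0.56) and miR-146b (-0.39), a miR of the NF-κB response. Against MEP, 8 were called higher in CMP and 0 lower (median 1.65), against 43.9% and 20.7% of all tested miRs. Against the HSC subsets 2 were called higher and 5 lower in MEP (median -0.73), against 24.5% and 38%. By these estimates miR-338-3p differed from the stem side in CMP by more than any of the 10, and miR-582-5p lay near the lower end with miR-148a and miR-146b. The 95% interval of miR-338-3p, 1.38 to 3.93, includes the 2.05 of miR-106b*. With slide as a block its difference was 0.86, and the 10 are not compared here under that setting.

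Since miR-338-3p is known from brain and oligodendrocytes, marker miRs of tissues outside the sort were read on the same arrays. Of 4 brain and oligodendrocyte miRs, neuronal miR-9 and miR-124 lay at the floor on all GMP arrays and did not pass the filter. In CMP, miR-124 was well above background on CMP 1 (5.10) and CMP 3 (4.25) and at 3.84 on CMP 2, and miR-9 on CMP 1 (4.15). Both were at the floor on ST-HSC 1. The other 2, miR-219 and miR-128, were well above background on 15 and 16 arrays. MiR-219 was called higher in CMP than in the HSC subsets (1.07, limma, adjusted p = 0.0156), against 26.6% of all tested miRs. Its means were 4.78 in the HSC subsets, 5.85 in CMP, 5.88 in GMP and 5.48 in MEP. MiR-128 was not called there (0.28, limma, adjusted p = 0.506). The summed signal of the 4 was 69.5 to 142.6 units in GMP, 141.1 to 244.5 in CMP, 315.4 to 488.4 in MPP, 78.3 to 111.3 in ST-HSC, 60.3 to 116.7 in MEP and 41.8 in LT-HSC. Whether the signal of these 4 miRs has a part in the CMP level of miR-338-3p was not tested. All 3 muscle miRs were well above background on the same array, MEP 1, and on no other. There miR-1 was at 7.12, miR-133a at 6.63 and miR-206 at 4.05. The part of this signal in the comparisons with MEP was not tested. The liver miR and the 3 stroma and bone miRs on the array were well above background on no array. Of the 2 lymphoid miRs, 0 were called between CMP and the HSC subsets, against 43.9% of all tested miRs, and both were called lower in MEP than in the HSC subsets, against 38%.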

How the data were processed

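The deposited scanner files hold, per the file headers, spot intensity that Agilent Feature Extraction (9.5.3.1 on slide 1, 10.2.1.3 on slides 2 and 3) had background-subtracted, with no normalization between arrays. The authors also deposited log2 values, quantile-normalized with limma and not background-subtracted, which were used as an alternative.

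Spots marked as outliers were left out, spots were averaged per probe, and the 1712 probes were quantile-normalized over 16 arrays, raised to a floor of 3.07 units (from 672 negative controls: their 95th percentile on each array, and the median of these) and put on the log2 scale. Probes well above background on at least 3 arrays, 493 for 237 miRs, were kept, and the brightest stood for its miR. A mean per population was fitted with lmFit and eBayes (limma 3.58.1, R 4.3.3; 10 residual and 3.1 prior degrees of freedom), with two-sided tests adjusted over the 237 miRs after Benjamini and Hochberg at a threshold of 0.05. LT-HSC, with 1 array, was assumed to vary like the rest. The stem side was the mean of the LT-HSC, ST-HSC and MPP means.

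On simulated data with 60 miRs changed by 1.5 log2 units the fit recovered 90% for CMP against the HSC subsets, 88.3% for MEP against the HSC subsets and 75% for CMP against MEP, and unchanged miRs were 0%, 5.36% and 2.17% of the calls. The number of arrays limits the precision. Groups come from the labels, which do not say that replicates are separate sorts, so p-values measure the spread between these pools. The miRs, lists and comparisons were chosen with earlier results of these data known. Named were the 3 miRs with all probes, their other arms, the 3 most correlated miRs of each, and 4 of the study's other GMP miRs. Marker lists covered granulocyte-monocyte, erythroid, stem side, lymphoid, brain and oligodendrocyte, muscle, liver, and stroma and bone miRs. Alternatives changed the normalization, background correction, floor, filters, probe summary, variance trend, values used, slide or replicate number as a block, and the arrays left in.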

Additional observations from a re-analysis of the deposited data

Results flagged for a closer look

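Within the 7 arrays of the HSC subsets, ST-HSC 1 stood apart from the rest for a pair of the miRs. For miR-338-3p its gap to the next array made up 0.782 of the range of the 7 arrays, and for miR-149 0.619, above Dixon's critical value of 0.568 for 7 values. Such a flag is raised by chance in about 1 in 20 groups drawn from 1 normal population. These arrays mix LT-HSC, ST-HSC and MPP on slides 2 and 3, so that rate need not hold here. The values were 5.93 for miR-338-3p and 4.41 for miR-149, against highest other values of 2.77 and 3.46 in the HSC subsets. The shorter probe of miR-338-3p was also highest there among the 7, at 4.01 with all 6 others at the floor.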

How the results depend on the processing

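The number of called miRs was moved by over 1.5 times by a few settings. For CMP against the HSC subsets, MEP against the HSC subsets and CMP against MEP the counts were 104, 148 and 153 as reported, and 50, 84 and 97 with no normalization between arrays, 46, 81 and 68 with the highest floor (44.3 units), and 43, 70 and 63 among miRs well above background on all arrays, where none of the 3 miRs was tested. For CMP against the HSC subsets the count was 65 with slide as a block and 65 as a random block. Leaving out 1 array at a time gave 54 (without CMP 2) to 123, 128 to 169 and 138 to 168.

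MiR-338-3p in MEP against the HSC subsets changed sign with slide as a block (-1.61) and as a random block (-1.17, limma, adjusted p = 0.0463, against 0.00565 to 1 over the alternatives), and the differences of CMP 3 from ST-HSC 1 alone were -0.0733 for miR-338-3p and -0.0931 for miR-149, against called positive ones. With slide as a random block, CMP exceeded the HSC subsets by 1.29 for miR-338-3p (limma, adjusted p = 0.0672, against 6.1e-06 to 0.980) and by 0.28 for miR-149. With the highest floor these were 0.08 and 0. The cause was not tested. The replicate number in the titles, used as a block, took the call from miR-149 in CMP against the HSC subsets (0.99, limma, adjusted p = 0.0790, against 0.0101 to 1) and changed no other call of the 3. Among CMP, GMP and MEP arrays on slide 1, deviations from the population means had r of 0.227 to 0.480 in the 6 same-numbered pairs and of 0.298 to 0.450 in the 6 pairs with different numbers. In the other same-numbered pairs r ran from -0.26 to 0.156, so not every pair was over 0.1 and the samples were taken to share only a number.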
